A study of Homo sapiens with 2 samples.

Results

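The receptors and SMAD proteins that carry TGF-beta signals were measured in a human line derived from embryonic kidney, HEK-293, with and without added miR-204. The 10 genes described here were chosen by name and are the receptors TGFBR1, TGFBR2 and TGFBR3 and the SMADs from SMAD1 to SMAD7, out of 30484 gene names on the array. They had 16 probes on 43 spots. The control cells received a scrambled oligonucleotide and the others a miR-204 mimic, with 75 nM of oligonucleotide given in the sample labels and RNA taken after 48 h. Apart from the oligonucleotide, the labels describe both cultures in the same way, grown in medium with 10% serum, which was not varied. The labels do not say how many cultures were transfected or which arm of miR-204 the mimic copied, and the cell line was taken from the labels and not tested.

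A TGF-beta ligand brings together a type II receptor (TGFBR2) and a type I receptor (TGFBR1), and betaglycan (TGFBR3) helps to present the ligand. The activated type I receptor phosphorylates SMAD2 and SMAD3, while receptors for bone morphogenetic proteins (BMPs) phosphorylate SMAD1 and SMAD5. These receptor-regulated SMADs pair with SMAD4 and enter the nucleus, and the inhibitory SMAD6 and SMAD7 restrain the pathway. In epithelial cells the pathway is known for growth arrest and for epithelial-mesenchymal transition, and TGFBR2 has been reported as a target of miR-204. An mRNA array reads transcript abundance only, and neither SMAD phosphorylation nor protein was measured on it.

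A microRNA recognizes its targets mainly through its seed, bases 2 to 8 from the 5′ end. The mature forms of miR-204 are shown with these bases in capitals, together with the other mature human miRNA in the RefSeq set of 2370 names that has the seed of the 5p arm. All positions are on GRCh38.p14 and on the minus strand.
hsa-miR-204-5p, chr9:70810031-70810052: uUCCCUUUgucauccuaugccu
hsa-miR-211-5p, chr15:31065095-31065116: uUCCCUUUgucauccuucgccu
hsa-miR-204-3p, chr9:70809993-70810013: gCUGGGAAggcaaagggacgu
Counted from the 5′ end of miR-204-5p, miR-211-5p differs from it at 2 positions, A17U and U18C, both outside the seed. Seed matches in the 10 transcripts were not analysed here.

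Each array reads 2 RNAs on the same spots, 1 in Cy3 and 1 in Cy5. On array 1 the control RNA carried Cy3 and the miR-204 RNA Cy5, and the dye-swap array used the opposite labelling. Signals that the scanner software marked as clear of the local background are called detected. The 2 arrays were treated as 1 replicate, so that no test between the conditions was possible and the SD over the arrays is technical. They lay on 1 slide. The arrays held 41000 probes, of which 25270 were counted, meaning that they had no outlier flag and that the same RNA, control or miR-204, was detected on array 1 and again after the swap. Over the 23159 probes detected in all 4 channels, the ratios of the 2 arrays had a Pearson correlation of -0.08, given as a description across probes that share 2 hybridizations. Ratios are given as log2 of miR-204 over control after quantile normalization of the 4 channels, where -1 or 1 is 2-fold. In RNA from whole cultures, fewer cells that express a gene and less RNA per cell cannot be told apart.

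Of the 16 probes, 12 probes for 8 genes were counted, and 11 of them were detected in all 4 channels. None of the 12 was past 2-fold in the mean with the same sign on both arrays, and over all counted probes the same rule held for 0.518% in the lower and 0.123% in the higher direction. At 1.5-fold the count of receptor and SMAD probes was also 0, against 2.56% lower and 1.31% higher of all counted probes. SMAD5 was nearest to that limit, lower by a factor of 1.49 in the miR-204 RNA, and with the median of each array set to 0 it passed, so that the count became 1. The median ratio of the 12 probes was 0.02, between -0.57 for SMAD5 and 0.40 for SMAD7, beside a median of 0.01 over all counted probes.

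**Figure D1:**
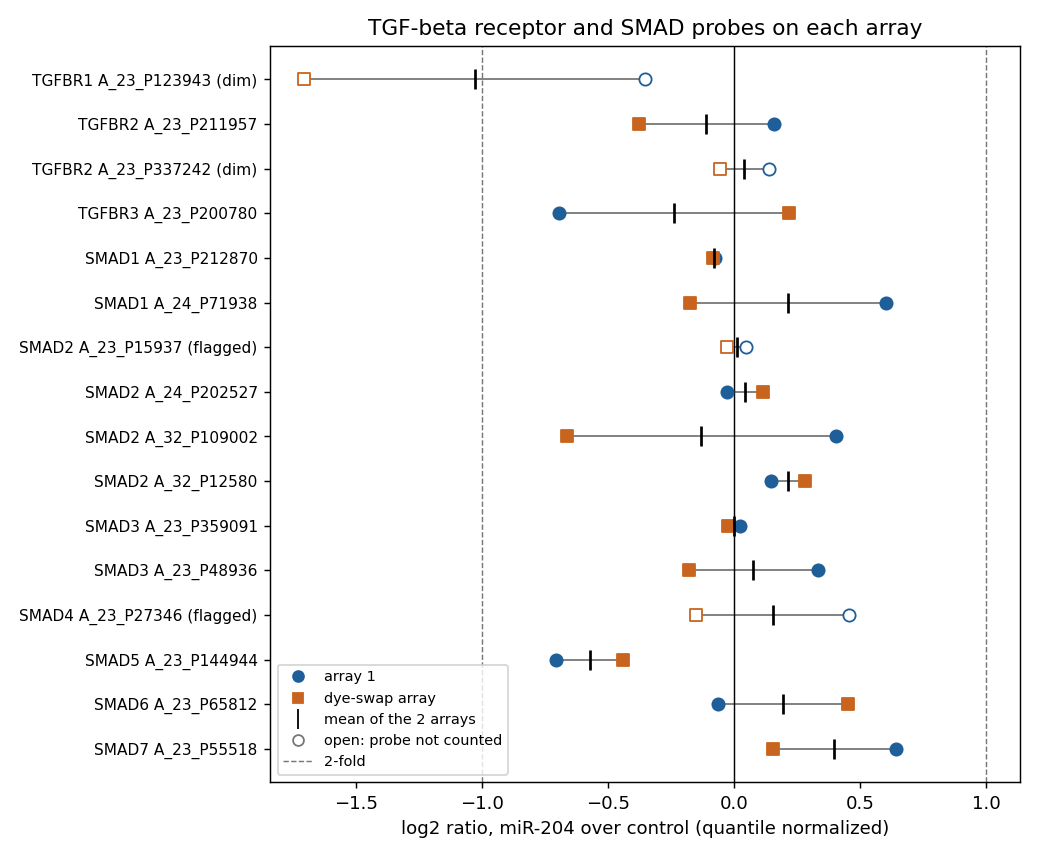
Log2 ratio of miR-204 over control for each of the 16 probes (vertical axis) on array 1 (circles) and on the dye-swap array (squares), with the mean of both as a bar and 2-fold as dashed lines. Open symbols mark the 4 probes that were not counted. SMAD5 lies to the left of 0 and SMAD7 to the right of it on both arrays, while most other pairs lie on both sides of 0.

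The 2 arrays gave the same sign for 4 of the 12 counted probes. SMAD5 and 1 SMAD1 probe were lower on both arrays, as were 22.4% of all counted probes. SMAD7 and 1 SMAD2 probe were higher on both, as were 25.4% of all. The other 8 probes had opposite signs, which was the case for 52.2% of all counted probes. In 5 of these 8 the ratio was above 0 on array 1 and below it on the dye-swap array, so that the Cy5 signal was the higher one both times, and in the other 3 the Cy3 signal was. With 1 array in each orientation, an effect of the dye and an effect of the array cannot be told apart.

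**Figure D2:**
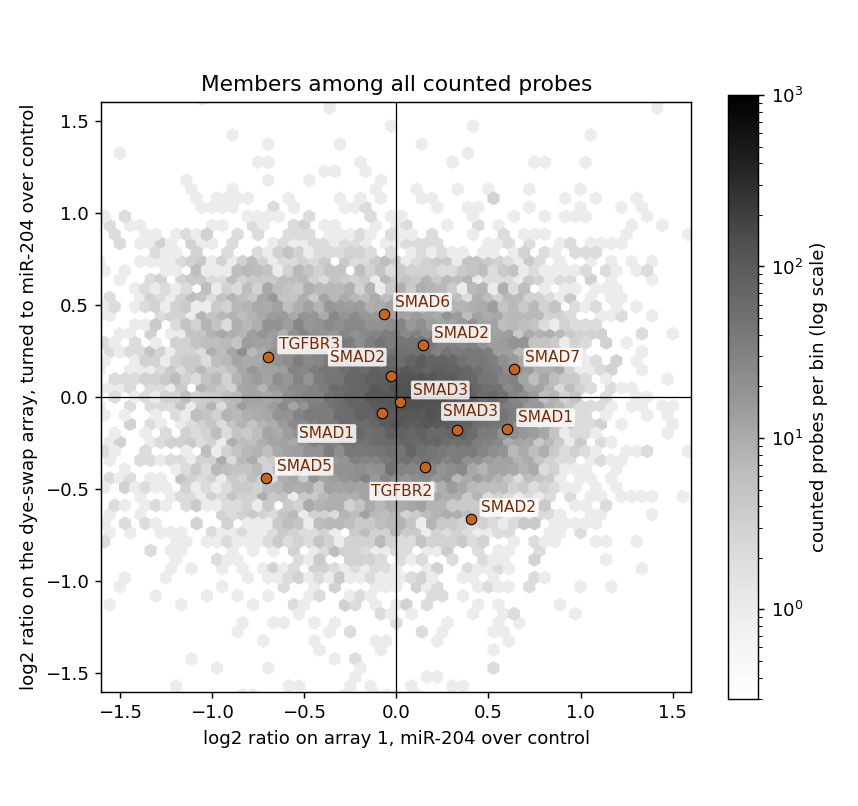
Log2 ratio on array 1 (horizontal axis) against the turned log2 ratio on the dye-swap array (vertical axis) for the 25270 counted probes, as grey bins shaded by number on a log scale, with the 12 receptor and SMAD probes in orange. SMAD5 stands at the lower left and SMAD7 at the upper right. The axes end at 1.6, and 195 probes beyond them are not drawn.

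Among the receptors, TGFBR2 gave opposite directions on the arrays. Its measurable probe was A_23_P211957 (chr3:30710167-30710226 on hg18, designed on transcript variant 1). On array 1 its processed signal, in arbitrary intensity units, was 975 for control and 1073 for miR-204. On the dye-swap array the control RNA gave 829 and the miR-204 RNA 637. The miR-204 RNA was thus the brighter one on array 1 and the dimmer one on the dye-swap array. The ratios were 0.16 and -0.38, with a mean of -0.11 ± 0.38 (SD over 2 arrays, 1 replicate). The mean of -0.11 was not outside the spread of the arrays, and 27.5% of the probes detected in all 4 channels had a mean ratio this low or lower. The signs stayed opposite in each of the 11 settings that used both arrays, where the mean lay between -0.19 and -0.09. Besides the main setting, 7 of these recomputed the ratios, while the others changed only filters or flags and repeated the main values. Of the 7, the deposited log10 ratios gave the same values as the processed signals without further normalization.

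The other TGFBR2 probe, A_23_P337242, was designed on transcript variant 2, and its hg18 position from 30690717 to 30704913 on chromosome 3 spans 14197 bases, where most member probes span 60, so that it crosses an intron. It was detected in none of the 4 channels, with processed signals of 8.82 and 10.7 on array 1 and 11.3 and 9.46 on the dye-swap array for control and miR-204. No direction was read from it. TGFBR2 transcripts were therefore followed by 1 probe on this array.

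TGFBR1, the type I receptor, was at the limit of detection. Its single probe, A_23_P123943 (chr9:100952018-100952077 on hg18), was detected in 1 of 4 channels, that of the control RNA after the swap. The processed signals were 19.9 in the control and 16.3 in the miR-204 RNA on array 1, and 12.5 and 5.69 on the dye-swap array. Both arrays gave the lower value to the miR-204 RNA, but the software's error of the lowest of these signals was as large as the signal itself. Set against the dimmest signals still detected, the control level did not exceed the floor of the miR-204 RNA, so no lower bound for a fold could be given. Without the filter on dim probes, TGFBR1 would be the single member past 2-fold, at a mean of -1.03 ± 0.96 (SD over 2 arrays) from ratios of -0.35 and -1.70.

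TGFBR3, the co-receptor betaglycan, had the widest disagreement of any member gene with 1 counted probe. For A_23_P200780 (chr1:91921476-91921535 on hg18) the control RNA gave 303 and the miR-204 RNA 187 on array 1, a ratio of -0.69. On the dye-swap array the control RNA gave 183 and the miR-204 RNA 213, a ratio of 0.22. The lower value thus belonged to the miR-204 RNA on array 1 only, and to the Cy5 channel on both arrays. The mean was -0.24 ± 0.65 (SD over 2 arrays). The gap of 0.91 between the arrays was 3.03 times the combined error that the scanner software gave for the 2 ratios, and 8.22% of probes detected in all 4 channels had a gap as large.

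**Figure D3:**
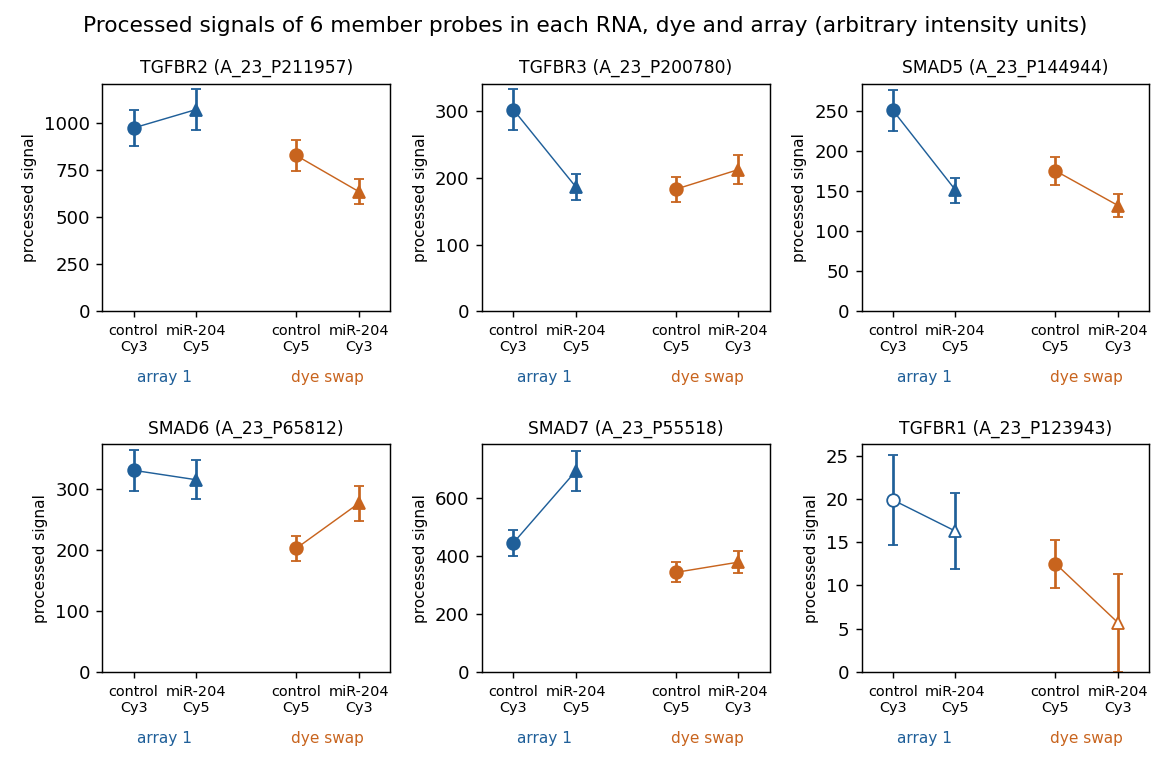
Processed signal, in arbitrary intensity units on a linear axis from 0 with its own scale in each panel, of 6 probes in the control RNA (circles) and the miR-204 RNA (triangles) on array 1 (blue) and the dye-swap array (orange). Bars are the scanner software's error of each signal and open symbols were not detected. SMAD5 goes down and SMAD7 up from control to miR-204 on both arrays, while TGFBR2, TGFBR3 and SMAD6 turn between them.

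SMAD5, which with SMAD1 carries BMP signals, was the lowest counted member. Its probe A_23_P144944 (chr5:135541281-135541340 on hg18, designed on transcript variant 2) gave 251 for control and 151 for miR-204 on array 1. On the dye-swap array the signals were 175 for control and 132 for miR-204. Within each array the miR-204 RNA was the dimmer one, in either dye. The ratios were -0.71 and -0.44, each with a software error of 0.22, and the mean was -0.57 ± 0.19 (SD over 2 arrays). Of the probes detected in all 4 channels, 1.79% had a mean ratio as low or lower. SMAD5 was lower on both arrays in the main setting and in the 7 alternatives that recomputed its ratios, with a mean from -0.59 to -0.43. No second SMAD5 probe was on the array, and the value has no replicate culture behind it.

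SMAD1 had 2 probes, 1 near 0 and 1 that depended on the array. For A_23_P212870 (chr4:146698483-146698542 on hg18) the control and miR-204 signals were 1811 and 1691 on array 1 and 1329 and 1259 on the dye-swap array. These ratios of -0.07 and -0.09 were the closest pair among the counted members. The second probe, A_24_P71938 (chr4:146699669-146699728), gave 871 and 1317 on array 1 but 729 and 641 on the dye-swap array. Its ratio was 0.60 on array 1 and -0.18 on the dye-swap array, and the mean was 0.21 ± 0.55. Both probes were designed on transcript variant 1, so the annotation offers no variant that would tell them apart. SMAD1 thus did not show the pair of lower ratios seen for SMAD5 at both of its probes, and the difference between the genes was not tested.

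SMAD2 and SMAD3, the SMADs of TGF-beta itself, had mean ratios between -0.13 and 0.21 at their counted probes. SMAD2 was read by 4 probes, of which 3 were counted. A_24_P202527 (chr18:43625745-43625804 on hg18) gave 528 in the control and 515 in the miR-204 RNA on array 1 and 353 and 380 on the dye-swap array, with ratios of -0.03 and 0.11. A_32_P12580 (chr18:43614186-43614245), the SMAD2 probe designed on transcript variant 2, gave 72.4 and 79.7 on array 1 and 53.2 and 64.6 on the dye-swap array. Its ratios of 0.15 and 0.28 were both above 0, and each was below or near its software error of 0.23 and 0.26. A_32_P109002 (chr18:43618481-43618540) was dim, with 25.7 and 34.5 on array 1 and 20.1 and 11.5 on the dye-swap array, and the last of these 4 signals was not detected. Its ratios of 0.40 and -0.66 pointed opposite ways, and its mean was -0.13 ± 0.75. The 3 counted SMAD2 probes averaged 0.04.

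SMAD3 had 2 counted probes. A_23_P359091 (chr15:65270577-65270637 on hg18) gave 617 and 625 on array 1 and 449 and 445 on the dye-swap array for control and miR-204. Its ratios were 0.02 and -0.03, so that the signals in the RNAs were nearly the same on both arrays. A_23_P48936 (chr15:65274445-65274504) gave 507 and 637 on array 1 and 425 and 376 on the dye-swap array, as means of 10 spots. Its ratios of 0.33 and -0.18 changed sign between the arrays, and the mean was 0.08 ± 0.36.

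SMAD4, the partner shared by both branches, was not counted because 1 of the 10 spots of its probe A_23_P27346 (chr18:46859058-46859117 on hg18) was a population outlier on the dye-swap array. With the other 9 spots kept, the control and miR-204 signals were 81.1 and 111 on array 1 and 57.1 and 51.7 on the dye-swap array. The miR-204 RNA was brighter on array 1 and dimmer on the dye-swap array, with ratios of 0.46 and -0.15 and a mean of 0.15 ± 0.43. A SMAD2 probe, A_23_P15937 (chr18:43622029-43622088), was left out for 1 such spot on array 1, and its other 9 spots gave ratios of 0.05 and -0.03.

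These 3 probes, printed 10 times on each array, separate the error of a spot from the difference between arrays. From processed signals without further normalization, the SMAD3 spots ran from 0.22 to 0.42 on array 1 and from -0.31 to -0.10 on the dye-swap array. The 9 SMAD4 spots ran from 0.23 to 0.57 on array 1 and from -0.37 to -0.03 on the dye-swap array. For both genes every spot of array 1 was above 0 and every spot of the dye-swap array below it. The SD over SMAD3 spots was 0.07 on each array, against a difference of 0.50 between the array means. For SMAD2 the spots overlapped, from -0.01 to 0.05 on array 1 and from -0.08 to 0.05 on the dye-swap array. Spots that do not overlap between the arrays were frequent, at 71.6% of the 176 probes that were printed 10 times and detected in all 4 channels.

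**Figure D4:**
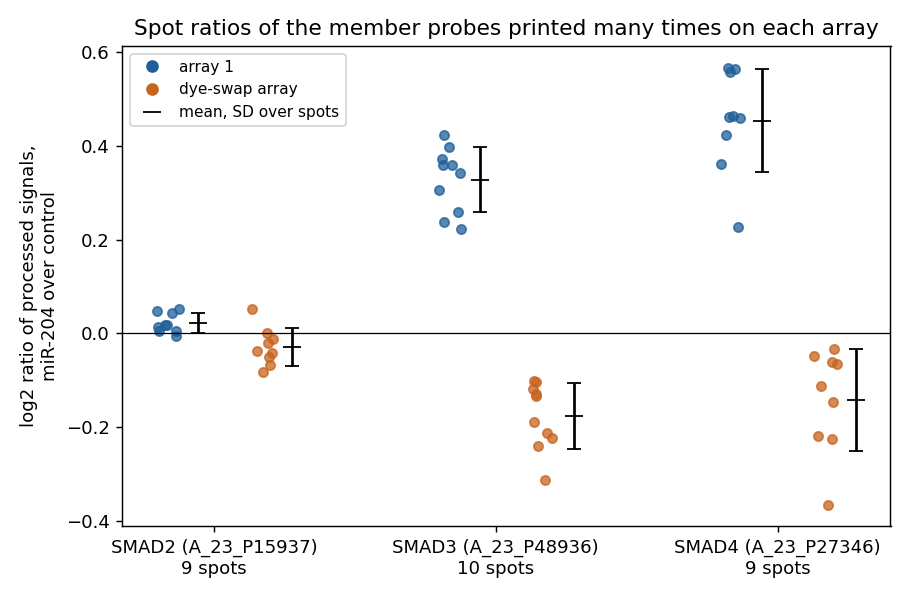
Log2 ratio of processed signals, miR-204 over control, of each spot of the SMAD2, SMAD3 and SMAD4 probes printed 10 times, on array 1 (blue) and the dye-swap array (orange), with the mean and the SD over spots in black and flagged spots left out. The SMAD3 and SMAD4 spots lie above 0 on array 1 and below 0 on the dye-swap array, and the SMAD2 spots lie close to 0 on both.

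With probes averaged by gene, the inhibitory SMADs had the highest mean ratios of the 8 counted member genes, but with unequal support from the arrays. Single probes of SMAD1 and SMAD2 had means of 0.21, above the 0.19 of SMAD6. SMAD7, an antagonist that is itself induced by TGF-beta, was read by A_23_P55518 (chr18:44700780-44700839 on hg18). Its signals were 444 for control and 692 for miR-204 on array 1, and 343 and 378 on the dye-swap array. The miR-204 RNA was the brighter one on both arrays, by a ratio of 0.64 on array 1 and of 0.15 on the dye-swap array. The mean was 0.40 ± 0.35 (SD over 2 arrays), reached or passed by 4.66% of probes detected in all 4 channels. The dye-swap ratio was smaller than its software error of 0.21. In 1 of the 7 alternatives that recomputed it, mean signals without background correction, it was -0.01. It was 0.02 with normexp background correction and loess, and also 0.02 with quantile normalization of the 2 ratios. In the other alternatives it lay between 0.14 and 0.19.

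SMAD6, the inhibitor that acts mainly on BMP signalling, was read by A_23_P65812, whose hg18 position on chromosome 15 from 64795864 to 64860421 spans 64558 bases and so crosses an intron. The control and miR-204 RNAs gave 331 and 316 on array 1 and 203 and 277 on the dye-swap array. Array 1 was close to 0, at -0.07, and the dye-swap array was above it, at 0.45. The mean was 0.19 ± 0.37. No member signal was saturated.

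The counted member probes were ordered by mean ratio. Of the 11 pairs of neighbours in that order, 10 had array values that overlapped, the exception being the first SMAD1 probe and the SMAD3 probe A_23_P359091 above it. Neighbours in a sorted order have close means, so overlap was likely beforehand where the arrays disagree. The share for other sets of probes was not computed, and nothing about the members was read from it. SMAD5 stood lowest, and both of its array values lay below both values of 9 of the 11 other counted probes, overlapping only with TGFBR3 and the dim SMAD2 probe. SMAD7 stood highest, and its values lay above those of 4 probes and overlapped with those of the other 7. SMAD5 and SMAD7 were looked at as the ends of the order. How often the end probes of other sets of 12 lie this far apart was not computed. The median gap between the 2 ratios of a probe was 0.50 over the 12 members, beside 0.33 over all counted probes.

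The wider pathway was described from a list of 82 further symbols, of which 79 were on the array and 68 had a counted probe. Of their 100 counted probes, 1 was lower and 0 were higher by the 2-fold rule, against the 0.518% and 0.123% of all counted probes. The median ratio was -0.02. By sign, 29 probes were lower on both arrays and 22 were higher on both, beside 22.4% and 25.4% of all counted probes.

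The probe past 2-fold was for SKI, a corepressor that binds SMAD proteins and limits their transcriptional output. Its probe A_24_P338603 gave 469 for control and 183 for miR-204 on array 1, and 334 and 187 on the dye-swap array. The miR-204 RNA was dimmer on both arrays, with ratios of -1.34 and -0.83 and a mean of -1.09 ± 0.36 (SD over 2 arrays), a factor of 2.12. On the dye-swap array alone it was not past 2-fold. The other counted SKI probes gave less, with means of -0.35 for A_24_P362100, whose arrays had opposite signs, and -0.21 for A_23_P325631, which was lower on both. With normexp background correction and loess, or with no background correction, no pathway probe passed the 2-fold rule.

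Among 15 ligand probes, the lowest was INHBA, the beta A subunit of activin and inhibin, at -0.66 ± 0.10 from signals of 73.4 and 48.9 on array 1 and 57.4 and 34.5 on the dye-swap array. The highest was LEFTY1, an antagonist of Nodal signalling, at 0.94 ± 0.18 from signals of 26.7 and 56.3 on array 1 and 23.1 and 39.4 on the dye-swap array. Each had the same sign on both arrays. The LEFTY1 signal of the control RNA on array 1 was not detected, and its ratio was 1.06 there and 0.81 on the dye-swap array, so that its mean is uncertain and no side of 2-fold was read from it. Among 15 probes of other receptors, the lowest was A_23_P109950 for ACVR2B, a type II receptor for activins, at -0.26 ± 0.37 from ratios of -0.52 and 0.002, while the other ACVR2B probes had means of -0.18 and 0.08. The highest was BAMBI, a pseudoreceptor without kinase activity, at 0.33 ± 0.10. SMAD9, the third SMAD of the BMP branch, had ratios of 0.03 and -0.02.

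The 50 regulator probes ran from SKI to LTBP3, which encodes a protein that holds latent TGF-beta in the matrix. Its probe A_24_P264790 gave 6.81 in the control, which was not detected, and 53.6 in the miR-204 RNA on array 1, and 46.4 and 37.5 on the dye-swap array. The ratios of 2.81 and -0.31 had opposite signs, so that the mean of 1.25 did not count as past 2-fold. Of the 19 probes for genes known as targets of the pathway, 0 were past 2-fold (0.518% lower and 0.123% higher of all counted probes), 7 were lower on both arrays and 2 were higher on both (22.4% and 25.4% of all counted probes). No lean was read from so few probes. The lowest was the probe A_24_P334130 for FN1, which encodes fibronectin, at -0.54 ± 0.28, but its miR-204 signal on the dye-swap array was not detected. The other counted FN1 probes, detected in all 4 channels, had means of -0.34 and of -0.05, the latter with opposite signs. The highest was SNAI2, a transcription factor of epithelial-mesenchymal transition, at 0.31 ± 0.14. SNAI1, another such factor among these targets, went the other way, with a mean of -0.28 and lower values on both arrays.

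**Figure D5:**
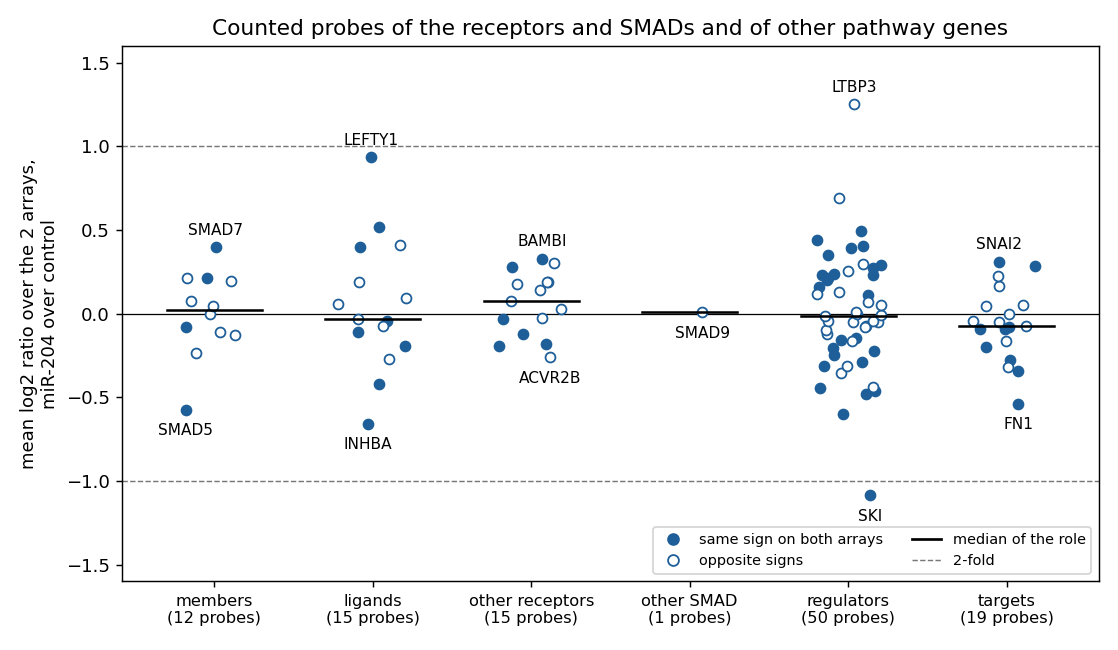
Mean log2 ratio over the 2 arrays, miR-204 over control (vertical axis), of the 12 counted receptor and SMAD probes and of the 100 counted probes of other pathway genes by role, with filled points for the same sign on both arrays, open points for opposite signs, bars for medians and dashed lines at 2-fold. SKI is the single filled point past 2-fold, and LTBP3 lies past it with opposite signs.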

How the data were processed

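Total RNA was labelled with Cy3 and Cy5 and hybridized to 2 Agilent whole-genome arrays. The authors extracted signals with Feature Extraction 9.5.3.1. The deposited processed signals are intensity values after this software's background subtraction and dye normalization, and signals at or under background were replaced by a surrogate. A deposited column gives log10 ratios, Cy5 over Cy3. The authors' series table holds log2 ratios with medians of 0.01 and -0.02, whose direction, miR-204 over control, was found by setting them against the scanner ratios (r = 0.99 on both arrays). The files place probes on hg18.

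Here, log2 processed signals of all spots were quantile normalized over 4 channels with limma 3.58.1 in R 4.3.3, as the authors' methods name quantile normalization. Control spots were dropped, as were 128 probes carrying an outlier flag, and spots of a probe were averaged. Detected means that the software called a signal well above background, for most spots of a probe. Between 25284 and 29024 of 43376 spots were detected per channel. Array medians over counted probes were 0.04 and -0.005. The software error is the error of 1 array's log ratio that Feature Extraction deposited, turned to log2 here. A probe was past 2-fold when its mean log2 ratio was at least 1 in size with the same sign on both arrays. As the arrays are 1 replicate, no test entered the main results. As alternatives, the methods' t-test and the test of limma were run, which set the miR-204 RNA against the control RNA. Their error is the technical spread of these arrays, so they say nothing about new cultures.

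RefSeq genes of GRCh38.p14 hold all 10 symbols. Every member probe is reported, and of the pathway list those past 2-fold and the lowest and highest of each role, with SNAI1 given beside SNAI2. The members, lists and rules were chosen with earlier results of these data known. Alternatives changed the normalization, background correction, deposited values, filters, flags, arrays, centring, threshold, test and gene summary. Probe and 3′ UTR sequences were not used here.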

Additional observations from a re-analysis of the deposited data

How the results depend on the processing

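The count of 0 receptor and SMAD probes past 2-fold was the same under the alternatives tried except without a filter on signal, where it was 1 (TGFBR1, detected in 1 of 4 channels). With 2-fold and either limma's test or the t-test of the methods it was also 0, unadjusted as well as after Benjamini-Hochberg adjustment. No counted member had a mean past 2-fold, so adding a test or requiring 2-fold on each array could only give 0. At 1.5-fold the count was 0, but 1 with each array's median set to 0 (SMAD5) and 1 without a filter on signal (TGFBR1), as recomputed after seeing the data. Their median ratio lay between -0.06 (dye-swap array alone) and 0.08 (array 1 alone), and 3 to 5 of the probes had the same sign on both arrays. Of 84 single ratios recomputed under the 7 alternatives that change the values and use both arrays, 76 moved by less than the SD over the arrays. The other 8 were of the SMAD1 probe A_23_P212870 and the SMAD2 probe A_32_P12580, whose arrays were close together. This SD is wide where the arrays of a probe disagree, so the count does not measure how stable the ratios were. The deposited log10 ratios also repeat the processed signals and were counted again. With the brightest probe in place of the mean over probes, SMAD1 turned from 0.07 to -0.08 and SMAD3 from 0.04 to -0.002, within the spread of the arrays. The count of 1 pathway list probe past 2-fold, of 100 counted, became 4 at 1.5-fold (SKI, INHBA and PIAS4 lower, LEFTY1 higher). At 1.5-fold, 2.56% of all counted probes were lower and 1.31% higher, so nothing particular to the pathway was read from these 4. The count was 7 on array 1 alone and 0 on the dye-swap array alone, where the shares of all counted probes were not computed. It was 0 with 2-fold required on each array, with normexp and loess, without background correction, and after Benjamini-Hochberg adjustment of the methods' t-test or of limma's test, each of which gave 1 (SKI) unadjusted. The cause was not tested. No analysis paired by culture was possible, because the 2 arrays were treated as 1 replicate and the labels do not give the number of cultures. Signal over background limits TGFBR1 and the second TGFBR2 probe, and the number of arrays limits every value.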
